A study of Mus musculus with 18 samples.

Results

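The proteasome is the protease complex that degrades ubiquitin-tagged proteins, and its genes carry symbols that begin with Psm. Constitutive proteasome genes were taken by symbol: Psma, Psmb, Psmc, Psmd and Psme followed by a number, without the inducible Psmb8, Psmb9 and Psmb10. Of 24493 gene symbols listed, 43 fitted the pattern, 40 remained without the inducible genes, and 38 had a mean of at least 1 TPM (a measure of transcript abundance scaled by transcript length) over the 18 libraries. The 2 that fell under this level were the tissue-specific 20S genes Psma8, with a mean of 0.131 TPM, and Psmb11, with 0.441 TPM. The 38 members comprise 7 alpha and 7 beta subunits of the 20S core, 6 ATPases and 11 other subunits of the 19S cap, 3 chaperones of cap assembly (Psmd5, Psmd9 and Psmd10), the 2 PA28 genes Psme1 and Psme2, and the 2 other activators Psme3 and Psme4. They were followed through 6 groups of 3 libraries. The cells were tumor cells of the C57BL/6 mouse pancreatic lines 6419c5 and 6694c2, implanted under the skin, untreated, and sorted from the tumors. Each line had wild-type (WT) cells and 2 clones, KO1 and KO2, in which Kdm3a, the gene of a histone demethylase, was knocked out. The labels do not state the sort marker, the animals' age or whether the 3 libraries per group stem from different mice, so p-values measure the spread between these libraries, which may be technical. A knockout group is 1 clone.

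As background, the 20S core is a barrel of alpha and beta rings whose catalytic sites lie on Psmb5, Psmb6 and Psmb7. Interferon-gamma induces Psmb8, Psmb9 and Psmb10, which take the places of these subunits during assembly of new particles, called immunoproteasomes. It also induces PA28, a ring of Psme1 and Psme2 that opens the core without ATP and favours release of peptides for major histocompatibility complex class I. The 19S cap, by contrast, recognises ubiquitin chains and unfolds substrates with its ATPase ring.

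The transcript of the targeted gene was lower but present in the knockouts: Kdm3a had 24.1 to 38.2 TPM in 6419c5 WT, 21.6 to 24.6 in KO1 and 12.3 to 18.8 in KO2, and 38.9 to 67.6, 26.2 to 29.8 and 25.2 to 30.2 TPM in the 6694c2 groups in that order. The mean change was -0.75 in 6419c5 (limma adjusted p = 0.0185) and -0.75 in 6694c2 (limma adjusted p = 0.0091); in 6419c5 KO1 alone the change of -0.45 did not pass (limma adjusted p = 0.299). Changes here are differences of log2(TPM + 1), which understate those of low genes. Of 8 tumor epithelial genes the summed TPM was 5628 to 12764 over all libraries. Markers of other cells were also present in all groups although the cells were sorted. The summed TPM of 10 macrophage genes ran from 1229 to 7606 in 6419c5 WT, 2317 to 8306 in KO1 and 205 to 427 in KO2, and from 138 to 1740 in 6694c2 WT, 3273 to 6228 in KO1 and 418 to 3419 in KO2. The clones of a line differed in these markers. In 6419c5 KO1 1 of 8 tumor epithelial genes fell against WT and no other marker passed (4 of 8 fibroblast genes were higher at an unadjusted p under 0.05), while in KO2 10 of 10 macrophage genes fell (median -3.26), with 3 tumor epithelial genes, 1 of 6 neutrophil genes and the 1 acinar gene tested. In 6694c2 KO1 7 of 10 macrophage genes rose (median 2.88), with 7 of 8 fibroblast, 5 of 6 neutrophil, 4 of 6 endothelial and 3 of 4 tested T and NK cell genes, and 4 tumor epithelial and 2 of 4 erythroid genes fell. In 6694c2 KO2 0 macrophage (median 0.47), 0 fibroblast and 0 endothelial genes passed by limma (0, 1 and 1 at an unadjusted p under 0.05), 3 T and NK cell genes and 1 neutrophil gene rose, and 2 tumor epithelial and 2 erythroid genes fell. The part of other cells in the results that follow was not tested except as given beside them. In bulk RNA, fewer cells of a type and less RNA per cell cannot be told apart. Among the single libraries that stood apart from their groups in such markers were 6419c5 WT replicate 3, 6694c2 KO1 replicate 1 and 6694c2 KO2 replicate 3. Counts without these 3 libraries are given below. Others also stood apart and were kept in that setting. The mean log2(TPM + 1) of the 10 macrophage genes was 4.65, 6.31 and 3.06 in 6694c2 WT replicates 1, 2 and 3. In 6419c5 KO1 it was 6.75, 8.75 and 8.29.

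Promoter sequence is shown first for the 3 members that rose over both clones in each line, Psme1, Psme2 and Psmd10. Psme2 and Psmd10 did not pass in 6419c5 KO2 alone. The windows of these members can be set beside the letters of known interferon elements. Each line below holds 300 bases from RefSeq (GRCm38.p6), 250 before and 50 from the start of transcription, on the gene's strand. Capitals mark a match to the core of the interferon-stimulated element, GAAANNGAA, or to the gamma-activated site, TTCNNNGAA, on either strand.
Psme1, chr14:55578244-55578543, plus strand: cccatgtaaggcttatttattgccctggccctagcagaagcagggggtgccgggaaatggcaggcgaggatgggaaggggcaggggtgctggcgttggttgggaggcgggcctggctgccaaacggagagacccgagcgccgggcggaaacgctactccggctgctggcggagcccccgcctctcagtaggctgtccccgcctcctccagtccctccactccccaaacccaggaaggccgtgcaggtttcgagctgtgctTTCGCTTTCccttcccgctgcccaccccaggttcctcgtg
Psme2, chr14:55591052-55591351, minus strand: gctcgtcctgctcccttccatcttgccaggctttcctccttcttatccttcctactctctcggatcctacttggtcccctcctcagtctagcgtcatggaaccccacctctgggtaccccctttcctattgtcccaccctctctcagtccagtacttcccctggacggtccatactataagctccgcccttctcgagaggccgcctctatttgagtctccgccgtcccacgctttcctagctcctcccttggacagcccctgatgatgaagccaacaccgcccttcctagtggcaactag
Psmd10, chrX:140956662-140956961, minus strand: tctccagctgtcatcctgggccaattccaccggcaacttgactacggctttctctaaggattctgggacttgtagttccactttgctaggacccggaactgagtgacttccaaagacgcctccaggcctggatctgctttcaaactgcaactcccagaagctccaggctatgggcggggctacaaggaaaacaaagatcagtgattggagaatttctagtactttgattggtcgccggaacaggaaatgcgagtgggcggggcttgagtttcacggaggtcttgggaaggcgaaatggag
The Psme1 window held 1 match to the interferon-stimulated core, TTCGCTTTC on the opposite strand, beginning 11 bases after the start. Neither of the windows RefSeq gives for Psme2 and none of the Psmd10 window matched either motif. Windows were found for 32 of the 38 members. The core occurred in 6 of these 32 genes (17.1% of their 35 windows, against 8.55% of all 32817 windows), namely Psmb3, Psmb4, Psmc2, Psmd4, Psmd9 and Psme1, and the gamma-activated site in 1, Psmd2 (2.86% against 8.29%). A motif of the NFE2L family, TGACNNNGC, the transcription factors that drive proteasome genes when the proteasome is inhibited, occurred in 6 of the 32 genes (17.1% of windows, against 12.4%), namely Psmb5, Psmb6, Psmc6, Psmd9, Psmd12 and Psme4. These matches describe letters only, and the matches of different motifs did not overlap each other.

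The PA28 genes were higher in the knockouts of both lines. Psme1 (chromosome 14, 55578123 to 55581529, plus strand, GRCm38) had 203, 196 and 201 TPM in 6419c5 WT, 287, 323 and 343 TPM in KO1 and 249.5, 262 and 278 TPM in KO2. In 6694c2 it had 196, 185 and 151 TPM in WT, 264, 249 and 247 TPM in KO1 and 276, 266 and 313 TPM in KO2. In each line every knockout library lay above every WT library. The rise was 0.53 (95% interval 0.35 to 0.70, limma adjusted p = 0.000867) in 6419c5 and 0.60 (0.43 to 0.78, limma adjusted p = 0.00013) in 6694c2.

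Psme2, its partner in the ring, lies 5911 bases further along the chromosome in the opposite direction (55587441 to 55591113, minus strand). It had 163, 169 and 177 TPM in 6419c5 WT, 267, 265 and 277 TPM in KO1 and 187, 207 and 224 TPM in KO2, and 146, 144 and 105 TPM in 6694c2 WT, 222, 198 and 244 TPM in KO1 and 244, 241 and 269 TPM in KO2. Knockout and WT libraries again did not overlap in either line. The rise was 0.47 (0.26 to 0.69, limma adjusted p = 0.00765) in 6419c5 and 0.85 (0.63 to 1.06, limma adjusted p = 2.94e-05) in 6694c2. The ratio of Psme1 to Psme2 TPM stayed between 1.01 and 1.44 in all 18 libraries. Reads of Psme2 could be shared with Psme2b, a near copy on chromosome 11 (48945354 to 48946190, minus strand), so its level is uncertain to that extent: Psme2b had 9.64 ± 2.02, 33.5 ± 3.85 and 28.3 ± 0.903 TPM (SD, n = 3) in 6419c5 WT, KO1 and KO2 and 10.7 ± 1.40, 16.2 ± 3.30 and 18.6 ± 1.64 TPM in the 6694c2 groups. These 4 rises of Psme1 and Psme2 passed the threshold under all 26 alternative settings. Among these, leaving out a library of the other line alters only the shared estimate of spread. Sizes ran from 0.50 to 0.60 for Psme1 in 6419c5 and from 0.42 to 0.68 in 6694c2. For Psme2 they ran from 0.44 to 0.55 in 6419c5 and from 0.66 to 0.93 in 6694c2.

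**Figure D1:**
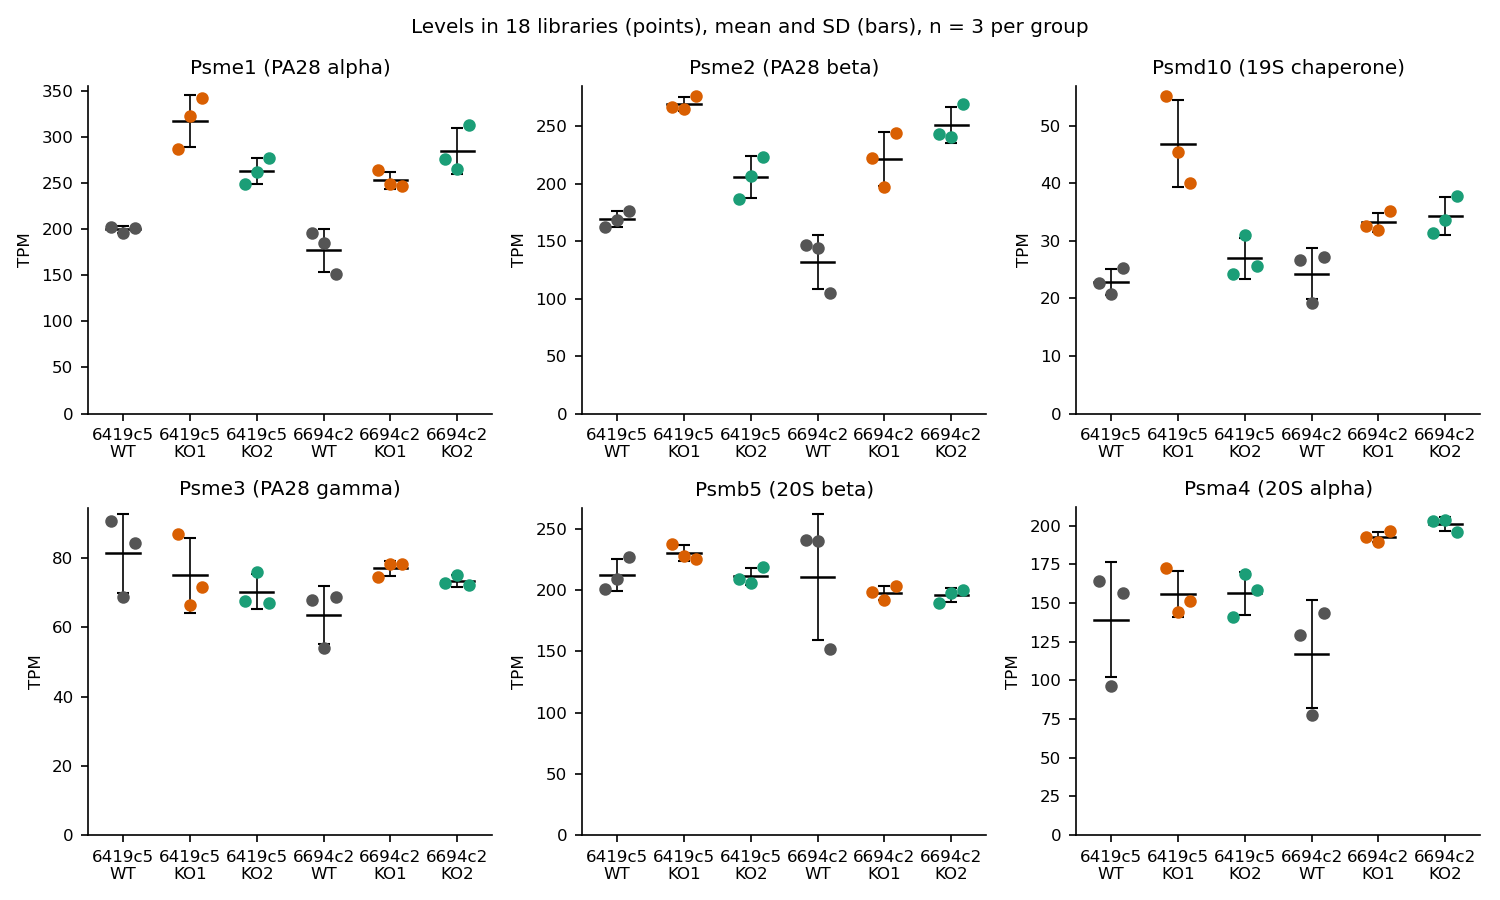
TPM of 6 members in each of the 18 libraries (points), with the mean and SD of each group (bars, n = 3), linear axes from 0. Psme1 and Psme2 are higher in every knockout library than in every WT library of the same line, Psmd10 is highest in 6419c5 KO1, and Psma4 does not overlap between knockout and WT in 6694c2 and does in 6419c5.

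Levels of macrophage markers are given beside these values. The mean log2(TPM + 1) of the 10 macrophage genes was 3.34 to 4.14 in 6419c5 KO2 and 5.72 to 8.38 in WT, while Psme1 rose in KO2 (0.39, limma adjusted p = 0.0105) and Psme2 did not pass there (0.28, 0.111). In 6419c5 KO1, where the index was 6.75 to 8.75, both PA28 genes had higher means than in KO2. In 6694c2 KO2 replicates 1, 2 and 3 that index was 4.15, 4.22 and 7.18, beside 3.06 to 6.31 in WT. Psme1 and Psme2 were above all WT libraries in each of them. In 6694c2 KO1 the index was 7.21 to 7.82, above WT. The part of macrophages and other cells in the PA28 values of any clone was not tested beyond the setting with this index as a covariate. In 6419c5 KO2 and 6694c2 KO1 the index did not overlap WT, so that setting cannot separate clone from macrophage content there. The share of all TPM taken by Mir6236, a microRNA precursor row with a large share of the total, was 6.04% to 9.57% in the 6694c2 knockouts and 8.57% to 17.4% in 6694c2 WT, and its part in the 6694c2 changes was not tested beyond the scaling settings given below.

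Among the 38 members 4 rose and 0 fell in the 6419c5 knockouts (limma adjusted p under 0.05), where 3.97% of all 13422 genes tested rose and 3.4% fell. In 6694c2 13 rose and 0 fell, where 14.7% of all genes rose and 5.79% fell. At an unadjusted p under 0.05 the members that were higher numbered 6 in 6419c5 and 21 in 6694c2, and the members that were lower 0 and 0. The median change of the members was 0.10 in 6419c5 and 0.26 in 6694c2, beside 0.01 and 0.15 for all genes tested. Relative to those medians of all genes, 30 of 38 members were above in 6419c5 and 28 of 38 in 6694c2. By position of libraries alone, all knockouts lay above all WT for 2 members in 6419c5 (4.6% of all genes) and for 13 in 6694c2 (13.2% of all genes). TPM were also rescaled by the median of ratios, which brings the median change of all genes in 6694c2 to -0.01. Then 4 members rose in 6694c2 (Psma4, Psmc2, Psme1 and Psme2) and 3 in 6419c5 (Psmd10, Psme1 and Psme2). All genes called in either direction numbered 2732 of 13422 in 6694c2 and 915 in 6419c5, beside 2744 and 990 before rescaling. In 6694c2 the count of members thus fell while that of all genes changed little. Without 6694c2 KO1 replicate 1, or without KO2 replicate 1, 8 members rose in 6694c2, where 2387 and 2314 of all genes were called in either direction. Without 6419c5 WT replicate 3, 6694c2 KO1 replicate 1 and 6694c2 KO2 replicate 3, 6 members rose in 6694c2 and 3 in 6419c5. All genes called in either direction numbered 2205 and 899 there. Psme1 and Psme2 were called in both lines under each of these settings.

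**Figure D2:**
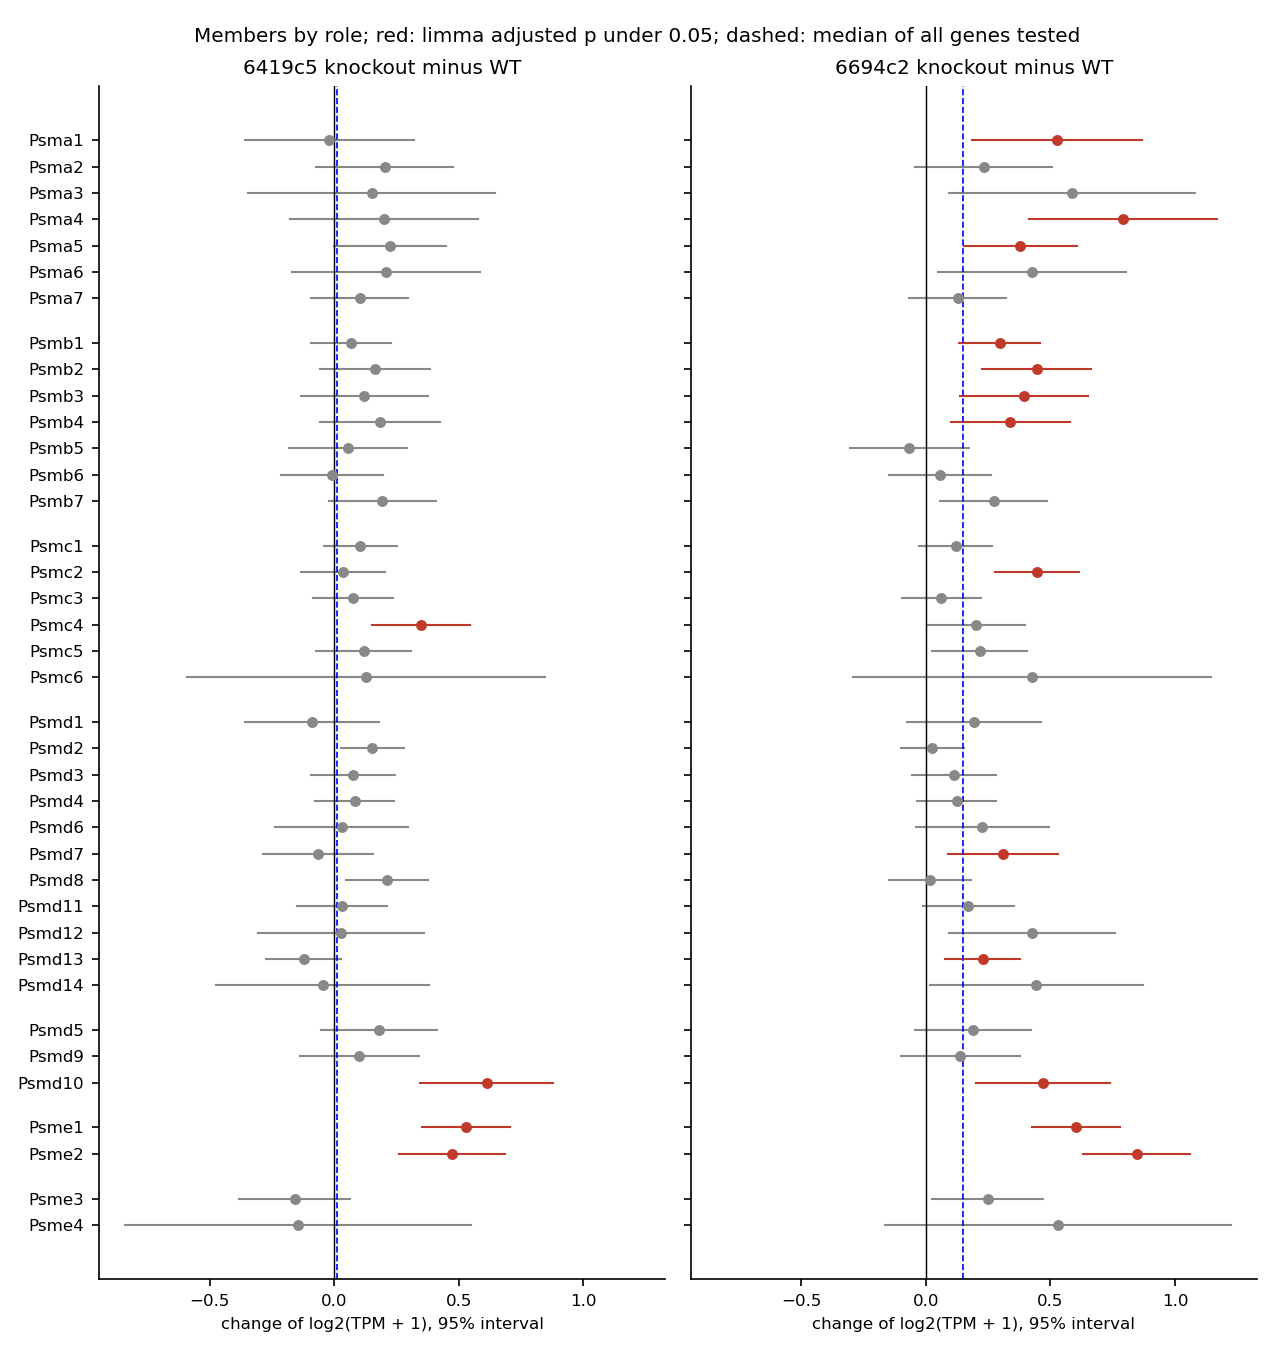
Change of log2(TPM + 1), knockout clones minus WT, of the 38 members (rows, grouped by role: 20S alpha, 20S beta, 19S ATPases, other 19S subunits, chaperones, PA28, other activators), with 95% intervals. Red points passed limma adjusted p under 0.05: 4 in 6419c5 and 13 in 6694c2, Psme1, Psme2 and Psmd10 in both; the dashed lines mark the median of all genes tested, 0.01 and 0.15.

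The clones were then set beside the strength of the interferon response, measured as the mean log2(TPM + 1) of 20 interferon-gamma genes such as Gbp2, Igtp and Cxcl9. All 20 rose in 6419c5 KO1 and in both 6694c2 clones, and 19 of 20 in 6419c5 KO2. These genes were chosen with earlier results of these data known, so the counts are no independent test of a response. Of all genes tested, 4.79% were called in either direction in 6419c5 KO1 and 18.9% in 6419c5 KO2. In 6694c2 the shares were 21.7% in KO1 and 14.5% in KO2. The index was 3.06 to 3.70 in 6419c5 WT, 5.99 to 6.21 in KO1 and 4.92 to 5.36 in KO2, and 2.22 to 2.62, 5.40 to 5.65 and 6.29 to 6.37 in the 6694c2 groups. Its mean rose by 1.80 in 6419c5 KO2, 2.79 in 6419c5 KO1, 3.09 in 6694c2 KO1 and 3.87 in 6694c2 KO2. Psme2 changed in the same order, by 0.28, 0.67, 0.75 and 0.94, and the first of these did not pass the test (limma adjusted p = 0.111). Psme1 rose by 0.39, 0.66, 0.52 and 0.69, all passing, with the middle clones in the other order. The clones of a line share their WT libraries, so this order is a description. Between clones directly, Psme2 was lower in KO2 than in KO1 of 6419c5 by a change of -0.39 (-0.64 to -0.15, limma adjusted p = 0.0205). This call was lost with the macrophage index as a covariate (-0.09, limma adjusted p = 0.731), with the median-of-ratios scaling (-0.30, 0.142) and without KO1 replicate 2 (-0.40, 0.0512), KO1 replicate 3 (-0.37, 0.0668) or KO2 replicate 1 (-0.32, 0.0923). The macrophage index did not overlap between these clones (6.75 to 8.75 in KO1, 3.34 to 4.14 in KO2). The covariate therefore cannot separate clone from macrophage content here. In the same comparison 10 of 10 macrophage genes (median -4.26) and 5 of 8 fibroblast genes were lower in KO2. So were 18 of the 20 interferon genes and Psmb8, Psmb9 and Psmb10, where 26.3% of all genes were called in either direction. The part of any of these in the Psme2 difference was not tested. The change of Psme1 was -0.27 (-0.47 to -0.06, limma adjusted p = 0.0506). In 6694c2 the same comparison gave 0.17 (-0.04 to 0.37) for Psme1 and 0.19 (-0.06 to 0.43) for Psme2, and neither passed.

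Over all members, 3 were called in 6419c5 KO1 against WT (Psmd10, Psme1 and Psme2, 4.79% of all genes called in either direction) and 3 in KO2 (Psmc4, Psmd8 and Psme1, beside 18.9%). In 6694c2 9 were called in KO1 (21.7% of all genes) and 9 in KO2 (14.5%), all higher, with 7 in common: Psma4, Psmb1, Psmb2, Psmc2, Psmd10, Psme1 and Psme2. The clones of 6419c5 differed from each other in 3 members, Psmc4 higher and Psmd10 and Psme2 lower in KO2 (26.3% of all genes). The Psmd10 call held in all 26 alternatives. That of Psmc4 was lost with the macrophage covariate (0.36, limma adjusted p = 0.19), which cannot separate clone from macrophage content in this comparison. The Psmc4 call was also lost without the 3 libraries (0.32, limma adjusted p = 0.0506). So it was without KO1 replicate 2 or 3 or any 1 of the KO2 replicates (0.24 to 0.36, 0.0572 to 0.173). Those of 6694c2 differed in 0 members by limma (9.53% of all genes) and in 2 at an unadjusted p under 0.05, while 10 of the 20 interferon genes were higher in KO2 than in KO1. Single libraries moved these counts: that of 6694c2 KO1 was 14 without WT replicate 1 and 5 without WT replicate 2 or any 1 of its own replicates, and that of 6694c2 KO2 was 3 without WT replicate 2 and 4 without its own replicate 1 or 2. The count between the 6419c5 clones was 1 without KO1 replicate 3 or KO2 replicate 1 and 5 without KO1 replicate 1 or, through the shared estimate of spread, without 6694c2 WT replicate 1 or 3. Between the 6694c2 clones it was 1 without 6694c2 WT replicate 3.

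**Figure D3:**
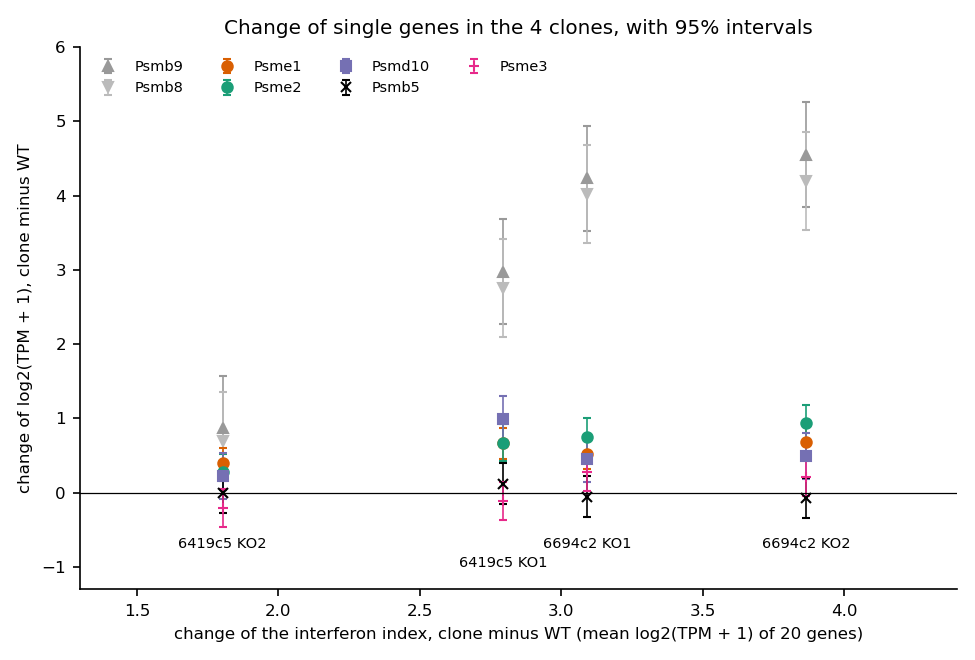
Change of log2(TPM + 1) against WT of 7 genes in the 4 clones (vertical axis, 95% intervals), placed by the change of the interferon index of 20 genes (horizontal axis). The 20 genes were chosen with earlier results of these data known. Psmb8 and Psmb9 rise by up to 4.20 and 4.55, Psme1 and Psme2 differ from WT by 0.28 to 0.94, and Psmb5 and Psme3 pass the test in no clone; clones of a line share their WT libraries.

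The activator genes other than Psme1 and Psme2 did not pass the test in either line. Psme3 encodes PA28 gamma, a nuclear activator, and is not counted among the PA28 genes in this text. It had 90.8, 68.8 and 84.5 TPM in 6419c5 WT, 87.02, 66.3 and 71.7 TPM in KO1 and 67.6, 76.1 and 67.1 TPM in KO2, and 67.95, 53.9 and 68.7 TPM in 6694c2 WT, 74.5, 78.3 and 78.3 TPM in KO1 and 72.8, 75.3 and 72.2 TPM in KO2. Its libraries overlapped between knockout and WT in 6419c5 and did not in 6694c2. The difference was -0.16 (-0.38 to 0.06, limma adjusted p = 0.468) in 6419c5 and 0.25 (0.03 to 0.47, limma adjusted p = 0.103) in 6694c2. Psme4, which encodes PA200, an activator tied to acetylated histones, had 26.8 ± 12.7 TPM (SD, n = 3) in 6419c5 WT, 19.8 ± 5.81 TPM in KO1 and 26.6 ± 7.23 TPM in KO2, and 31.1 ± 18.8, 41.5 ± 5.24 and 39.98 ± 5.83 TPM in the 6694c2 groups. Its libraries ranged from 15.1 to 52.1 TPM and overlapped between knockout and WT in both lines. Its differences, -0.14 (-0.84 to 0.55, limma adjusted p = 0.896) and 0.53 (-0.17 to 1.23, limma adjusted p = 0.263), had the widest intervals among the activators. Psme4 passed in 6694c2 when WT replicate 3 was left out (0.97, limma adjusted p = 0.0388), and both genes passed there with the macrophage index as a covariate.

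In the 20S core, none of the 3 constitutive catalytic subunits passed the test in either line, while their 3 inducible counterparts rose in both. Psmb5, the chymotrypsin-like subunit, had 201, 209 and 227 TPM in 6419c5 WT, 237, 228 and 225 TPM in KO1 and 209, 206 and 219 TPM in KO2. In 6694c2 it had 241, 240.2 and 152 TPM in WT, 199, 192 and 203 TPM in KO1 and 189.9, 197 and 201 TPM in KO2, so that WT replicate 3 lay below and the other WT libraries above all knockouts. The differences were 0.06 (-0.18 to 0.29, limma adjusted p = 0.879) and -0.07 (-0.30 to 0.17, limma adjusted p = 0.71); without 6694c2 WT replicate 3, Psmb5 was lower in the 6694c2 knockouts by a change of -0.29 (limma adjusted p = 0.00271).

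Psmb6, the caspase-like subunit, ranged from 209.9 to 219.9 TPM in 6419c5 WT, 205 to 232 in KO1 and 204 to 221 in KO2, and from 128 to 187, 187 to 195 and 146 to 157 TPM in the 6694c2 groups. Its differences were -0.01 (-0.21 to 0.20, limma adjusted p = 0.986) and 0.06 (-0.15 to 0.26, limma adjusted p = 0.707). Psmb7, the trypsin-like subunit, ranged from 219.8 to 272, 252 to 313 and 276 to 326 TPM in the 6419c5 groups and 154 to 197, 193 to 209.9 and 189 to 216 TPM in those of 6694c2. Its differences were 0.19 (-0.02 to 0.41, limma adjusted p = 0.323) and 0.27 (0.06 to 0.49, limma adjusted p = 0.0671), and the latter passed in 3 of 26 alternatives. Knockout and WT libraries of all 3 catalytic genes overlapped in both lines.

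The inducible counterpart of Psmb5, Psmb8, had 57.8 ± 15.96 TPM (SD, n = 3) in 6419c5 WT, 385 ± 32.5 TPM in KO1 and 94.5 ± 27.8 TPM in KO2, and 14.3 ± 8.90, 223 ± 22.5 and 254 ± 42.6 TPM in the 6694c2 groups. It rose by 1.72 in 6419c5 (limma adjusted p = 0.000777) and 4.11 in 6694c2 (limma adjusted p = 5.31e-08), Psmb9 by 1.92 and 4.39 (limma adjusted p = 0.000563 and 5.59e-08), and Psmb10 by 0.85 and 1.89 (limma adjusted p = 0.00561 and 1.66e-06). Psmb8 made up 15.5% to 26.8% of the summed Psmb8 and Psmb5 TPM in 6419c5 WT, 59.9% to 65.0% in KO1 and 25.5% to 36.3% in KO2. In 6694c2 the share was 3.61% to 9.27% in WT, 50.7% to 55.6% in KO1 and 54.0% to 60.2% in KO2. For Psmb9 beside Psmb6 the shares in the same order of groups were 9.34% to 10.99%, 43.1% to 50.9%, 14.05% to 22.02%, 2.15% to 6.43%, 37.9% to 40.2% and 46.4% to 55.4%. For Psmb10 beside Psmb7 they were 23.7% to 28.2%, 38.3% to 49.3%, 24.5% to 29.2%, 13.1% to 24.7%, 38.6% to 41.7% and 36.0% to 45.2%. The inducible transcript thus held more than the constitutive one for Psmb8 in KO1 of 6419c5 and both clones of 6694c2, in every library. In 6419c5 KO2 the inducible genes did not pass the test against WT (Psmb8 0.70, Psmb9 0.87 and Psmb10 0.38, limma adjusted p = 0.135, 0.0834 and 0.201). Psme1 passed there with a change of 0.39, smaller than those of Psmb8 and Psmb9, and no test compared these genes. Every 6419c5 knockout library lay above every WT library for Psmb9 (from 33.3 TPM, against up to 25.9) and Psmb10 (from 105 TPM, against up to 87.8). Those of Psmb8 overlapped.

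Of the other 20S genes, those of 6694c2 rose in part and those of 6419c5 did not pass. Of 14 constitutive 20S members 0 passed in 6419c5 by limma (0 also at an unadjusted p under 0.05, median 0.16), where 3.97% of all genes rose and 3.4% fell. In 6694c2 7 rose (median 0.36, beside 0.15 for all genes), where 14.7% of all genes rose: Psma1, Psma4, Psma5, Psmb1, Psmb2, Psmb3 and Psmb4. With the median-of-ratios scaling Psma4 alone of these 7 passed. Psma4, an alpha ring subunit, had 129, 77.9 and 144 TPM in 6694c2 WT, 193, 189 and 196 TPM in KO1 and 203, 204 and 196 TPM in KO2. Its WT libraries all lay below its knockouts, with replicate 2 lowest, and the rise was 0.79 (0.41 to 1.17, limma adjusted p = 0.00595), which held in all 26 alternatives. In 6419c5 Psma4 had 164, 96.5 and 157 TPM in WT, 173, 144 and 151 TPM in KO1 and 141, 169 and 159 TPM in KO2, which overlapped, and the test of the difference between lines gave 0.59 (0.06 to 1.13, limma adjusted p = 0.16).

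Psma1, another alpha subunit, had 113, 74.6 and 118 TPM in 6694c2 WT, 139, 127 and 149 TPM in KO1 and 159, 158 and 136 TPM in KO2, with no overlap between knockout and WT. Its rise was 0.53 (0.19 to 0.87, limma adjusted p = 0.0308). It missed the threshold in 9 of 26 alternatives, among them without WT replicate 2 (0.32, limma adjusted p = 0.178), and also without KO1 replicate 1 or 3 or KO2 replicate 1 or 2 (adjusted p from 0.0503 to 0.0588). The most abundant 20S transcript was Psmb4, with a mean of 369.6 TPM over 18 libraries, and the least abundant Psma3, with 61.7 TPM; both encode structural subunits without a catalytic site.

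Of the 17 subunits of the 19S cap 1 rose in 6419c5, Psmc4 (median of the 17 changes 0.08), where 3.97% of all genes rose, and 3 rose in 6694c2, Psmc2, Psmd7 and Psmd13 (median 0.20, beside 0.15 for all genes), where 14.7% of all genes rose. These counts lie near the shares over all genes. Their mean levels ran from 72.5 TPM for the ATPase Psmc6 to 232 TPM for Psmd8. Psmc2, an ATPase, had 89.6, 77.8 and 75.3 TPM in 6694c2 WT, 103, 112 and 111 TPM in KO1 and 114, 113 and 109.7 TPM in KO2, with no overlap. The rise was 0.45 (0.28 to 0.62, limma adjusted p = 0.0011) and held in all 26 alternatives. In 6419c5 Psmc2 had 119.5, 97.7 and 115 TPM in WT, 128, 111 and 115 TPM in KO1 and 99.8, 113 and 114 TPM in KO2, which overlapped, with a difference of 0.03 (-0.13 to 0.20, limma adjusted p = 0.897).

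Psmc4, also an ATPase, had 142, 147 and 157 TPM in 6419c5 WT, 189.9, 152 and 168 TPM in KO1 and 201, 211 and 223 TPM in KO2. All 3 KO2 libraries and 2 of the KO1 libraries lay above every WT library. The rise over both clones was 0.35 (0.15 to 0.55, limma adjusted p = 0.0323), that in KO2 alone 0.51 (limma adjusted p = 0.00445), and that in KO1 0.19 (limma adjusted p = 0.425). The call over both clones was lost without any 1 of the WT replicates 1, 2 and 3, the KO1 replicates 1 and 3 or the KO2 replicates 2 and 3 (changes from 0.31 to 0.39, limma adjusted p from 0.0542 to 0.132).

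Among the chaperones of cap assembly Psmd10 passed in both lines. It encodes gankyrin, which binds the ATPase Psmc4 during assembly. Psmd10 (chromosome X, 140948429 to 140956728, minus strand, GRCm38) had 22.7, 20.7 and 25.3 TPM in 6419c5 WT, 55.1, 45.5 and 40.1 TPM in KO1 and 24.3, 31.01 and 25.7 TPM in KO2, so that KO1 lay above and KO2 overlapped WT. In 6694c2 it had 26.7, 19.2 and 27.1 TPM in WT, 32.7, 31.9 and 35.1 TPM in KO1 and 31.4, 33.7 and 37.8 TPM in KO2, with no overlap. The mean TPM of 6419c5 KO1 was 2.05 times that of WT (limma adjusted p = 0.000595). That of KO2 was 1.18 times WT and did not pass the test against WT. KO2 differed from KO1 by -0.77 (limma adjusted p = 0.0016). The value over both clones of 6419c5 that follows thus joins unlike clones, and its p-value does not measure the spread between clones. Over both clones the rise was 0.61 (0.34 to 0.88, limma adjusted p = 0.00645) in 6419c5 and 0.47 (0.20 to 0.74, limma adjusted p = 0.0164) in 6694c2. The 6694c2 call was lost without WT replicate 2 (0.31, limma adjusted p = 0.102), with the median-of-ratios scaling (0.29, 0.0591) and without the 3 libraries (0.44, 0.0548). Psmd5 and Psmd9, the other chaperones, did not pass in either line, with differences of 0.10 to 0.19; Psmd9, with a mean of 17.5 TPM, was the least abundant member.

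The knockout effect itself differed between the lines for 2 of the 38 members by limma, where 8.71% of all genes passed that test in either direction, and for 8 at an unadjusted p under 0.05. Psmc2 (difference 0.41, 0.17 to 0.65, limma adjusted p = 0.0326) and Psmd13 (0.35, 0.14 to 0.56, limma adjusted p = 0.0422) had the higher effect in 6694c2. Both calls were sensitive to single libraries. Neither passed without 6419c5 WT replicate 1 or 3, KO1 replicate 2 or KO2 replicate 1, or without 6694c2 WT replicate 3, KO1 replicate 2 or KO2 replicate 1 or 2; without 6694c2 WT replicate 3 the 1 member called was Psmb5, with the lower effect in 6694c2 (-0.34, limma adjusted p = 0.0105). Psmc2 alone of the pair passed without 6419c5 WT replicate 2 or KO2 replicate 3 or without 6694c2 KO1 replicate 1 or KO2 replicate 3, and Psmd13 alone without 6419c5 KO1 replicate 3 or without 6694c2 WT replicate 2 or KO1 replicate 3. With 4 members called, the count was highest without 6419c5 WT replicate 2. Psmd13, a subunit of the cap's lid, had 115, 114 and 115 TPM in 6419c5 WT, 114, 102 and 116 TPM in KO1 and 99.9, 105 and 97.6 TPM in KO2, and 90.8, 88.02 and 73.9 TPM in 6694c2 WT, 104, 103 and 91.3 TPM in KO1 and 101, 96.02 and 97.1 TPM in KO2. In 6694c2 its knockouts lay above WT without overlap, with a rise of 0.23 (limma adjusted p = 0.034), which was lost without WT replicate 3 (0.14, limma adjusted p = 0.134) and in 8 other alternatives. For the PA28 genes the line difference was 0.08 (-0.17 to 0.33, limma adjusted p = 0.742) for Psme1 and 0.37 (0.07 to 0.67, limma adjusted p = 0.12) for Psme2, whereas Psmb8, Psmb9 and Psmb10 differed by 2.38, 2.47 and 1.05, all passing (limma adjusted p = 0.00145, 0.00187 and 0.0146).

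The WT groups of the lines differed in 19 of 38 members, 18 lower and 1 higher in 6694c2 WT than in 6419c5 WT, where 46.3% of all genes differed (4319 lower and 1894 higher). The median difference was -0.26 for the members and -0.22 for all genes. The member higher in 6694c2 was the ATPase Psmc1, by 0.29 (limma adjusted p = 0.00741). Among the catalytic subunits Psmb6 and Psmb7 were lower in 6694c2 (differences -0.39 and -0.58, limma adjusted p = 0.0093 and 0.000808), and Psmb5 did not pass (-0.04, -0.32 to 0.24). Psme2 was also lower (-0.37, limma adjusted p = 0.0161), and Psme1 did not pass (-0.18, -0.38 to 0.02). The Psme2 call was lost with the median-of-ratios scaling (-0.16, limma adjusted p = 0.391), with the macrophage covariate (-0.21, 0.145), without 6419c5 WT replicate 3 (-0.34, 0.0538) or 6694c2 WT replicate 3 (-0.22, 0.0652) and without the 3 libraries (-0.34, 0.0709). That of Psmb6 was lost with the scaling (-0.18, 0.34) and the covariate (-0.28, 0.0749), and that of Psmb7 was not lost in any of the 26 alternatives. With the median-of-ratios scaling, which moves the median of all genes from -0.22 to -0.03, 6 members were lower and 3 higher. The mean Psme1 levels, in order, were 318 ± 28.1 TPM in 6419c5 KO1, 285 ± 25.1 in 6694c2 KO2, 263 ± 14.1 in 6419c5 KO2, 254 ± 9.30 in 6694c2 KO1, 199.99 ± 3.50 in 6419c5 WT and 177 ± 23.2 in 6694c2 WT (SD, n = 3), and neighbours in this order overlapped in their libraries except 6694c2 KO1 and 6419c5 WT, and 6419c5 WT and 6694c2 WT, the latter pair with a difference that did not pass the test.

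Outside the members, the other genes of the proteasome were taken from lists. Of 11 tested genes for assembly factors and cap-associated proteins 0 passed in 6419c5 by limma (3 at an unadjusted p under 0.05), where 3.97% of all genes rose and 3.4% fell, and 3 rose in 6694c2, where 14.7% rose: Pomp, which completes maturation of the 20S core (0.50, limma adjusted p = 0.00763), and the 20S assembly chaperones Psmg2 (0.46, 0.0199) and Psmg4 (0.63, 0.00105). Pomp also rose in 6419c5 KO2 (0.44, limma adjusted p = 0.033). Of 11 regulators and ubiquitin shuttles 0 passed in 6419c5 (2 at an unadjusted p under 0.05), and in 6694c2 0 rose (2 at an unadjusted p under 0.05) and 1 fell, where 5.79% of all genes fell: the shuttle Ubqln1 (-0.37, limma adjusted p = 0.0383). Nfe2l1, which drives transcription of subunit genes when proteasome activity falls, differed by 0.15 and -0.06 (limma adjusted p = 0.0951 and 0.453). Psmf1, which encodes the inhibitor PI31, differed by 0.12 and 0.18 (limma adjusted p = 0.499 and 0.144), so that neither passed in either line.

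In some libraries the deviations of members from their group mean went with the GC content of their transcripts. In 6694c2 WT the ATPase gene Psmc6, with the lowest GC content of the members at 37.0%, had 62.8, 35.3 and 124 TPM, and Psmb5, with 56.6%, had 241, 240.2 and 152 TPM, so that replicate 3 was highest for the former and lowest for the latter. Across the 38 members the deviation from the group mean correlated with GC content at a Pearson r of 0.88 in 6694c2 WT replicate 2, -0.84 in replicate 3, 0.85 in 6419c5 WT replicate 2 and -0.76 in replicate 1 (across all genes 0.53, -0.58, 0.55 and -0.50). It was -0.81 in 6419c5 KO2 replicate 2. In other libraries r was weaker, among them 0.30 in 6694c2 WT replicate 1, -0.27 in 6694c2 KO1 replicate 2 and -0.10 in 6694c2 KO2 replicate 1. Members of a library share its processing, so these values are descriptions. Psmc6 and Psme4 had the largest residual SDs, 0.52 and 0.50, beside a median of 0.15 over members and 0.17 over the 6466 genes of like TPM. Psme1, with 54.9% GC, had a residual SD of 0.11. A GC correction was added after the data were seen. In 20 bins of GC content it subtracted the median deviation of genes from their mean over all 18 libraries. It then added back the median of the library over all genes. Differences between groups that go with GC content can thus also be removed. With it 19 members rose in 6694c2 and 4 in 6419c5, with Psme1 at 0.68 and 0.53. All genes called in either direction numbered 3573 and 1150 of 13422, beside 2744 and 990 without it.

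**Figure D4:**
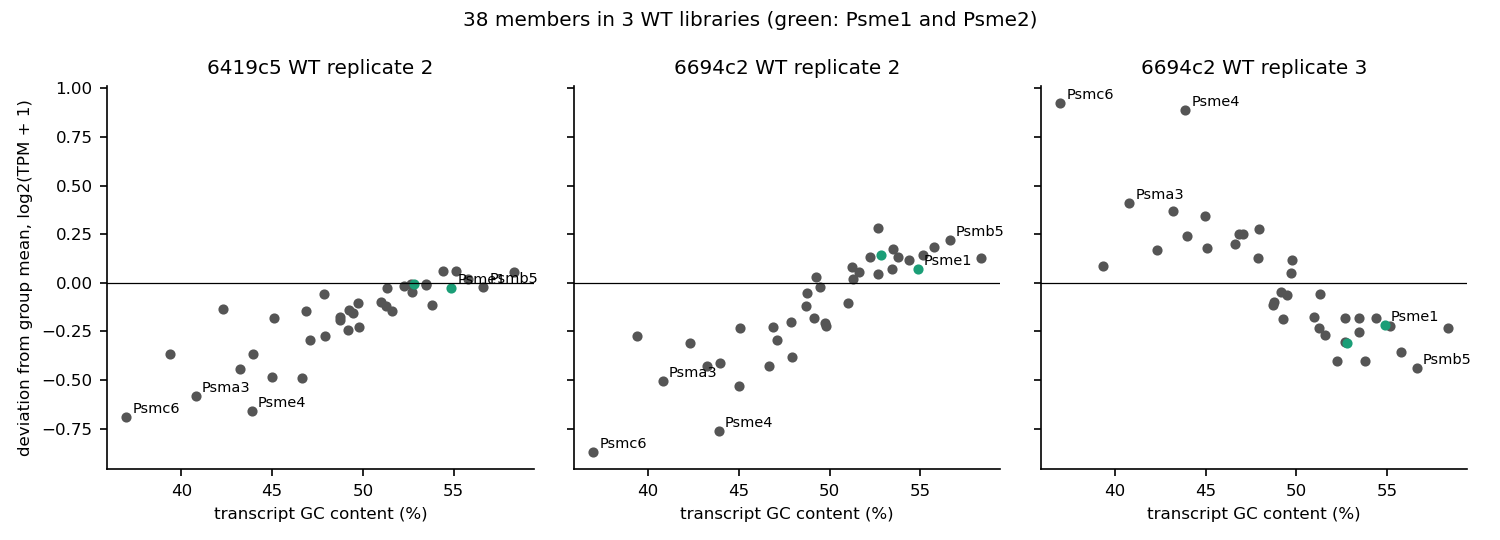
Deviation of each of the 38 members from its group mean (log2(TPM + 1), vertical) against the GC content of its transcripts (percent, horizontal) in 3 WT libraries; Psme1 and Psme2 are green. Members of low GC content such as Psmc6 lie low in 6419c5 WT replicate 2 and 6694c2 WT replicate 2 and high in 6694c2 WT replicate 3.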

How the data were processed

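RNA sequencing of sorted tumor cells gave 18 libraries in 6 groups of 3. The authors used Salmon and the mm10 build, per the submitters' processing notes; version and annotation are not given in the sources used here. The deposited values are TPM per gene, without read numbers, so depth and counting error are unknown. The name of the deposited table mentions a batch that no label describes. Its columns letter the clones A and B, read here as KO1 and KO2, which affects names only.

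One model of 6 group means was fitted to log2(TPM + 1) of 13422 genes (those averaging 1 TPM or more), with limma 3.58.1 (trend, empirical Bayes, 12 residual degrees of freedom) in R 4.3.3; p-values were adjusted by Benjamini-Hochberg over all genes and called under 0.05. The model was checked on simulated data with independent noise and planted changes larger than those of most members. Changes as small as those of most members were not covered by that check. Positions and transcript GC content came from GENCODE M21 (GRCm38), which names 23980 of the 24493 symbols, and promoters from RefSeq (GRCm38.p6).

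Members and lists were chosen with earlier results of these data known. Named with values are Psme1 to Psme4, Psmb5 to Psmb7, the 5 largest called rises and falls per line and between lines, and the most and least abundant 20S and 19S genes; other names were chosen after their values were seen. Same-numbered libraries were not treated as pairs. Alternatives were a pseudocount of 0.1, no filter, median-of-ratios scaling, removal of the 20 most abundant genes, a macrophage covariate, a replicate block and leaving out each library; a GC correction and leaving out 3 libraries were added after the data were seen.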

Additional observations from a re-analysis of the deposited data

Results flagged for a closer look

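The knockout effect differed between the lines, by a test of that difference, for Psmc2 (0.41, 6694c2 minus 6419c5, limma adjusted p = 0.0326) and for Psmd13 (0.35, limma adjusted p = 0.0422). These were 2 of 38 members, where 8.71% of all genes passed that test in either direction. In 6694c2 all 6 knockout libraries of each gene lay above all 3 WT libraries, and in 6419c5 the libraries overlapped. In 6694c2 WT both genes were lower than in 6419c5 WT, by differences of -0.45 and -0.45. The same WT libraries enter the test of the difference between lines, so this is not a separate result. The difference passed the threshold in 12 of 26 alternatives for Psmc2 and in 9 of 26 for Psmd13, with the same sign in all of them.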

How the results depend on the processing

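No named member's called change reversed under the 26 alternatives. Of 13 called changes of named members, 7 passed in every alternative: Psme1 and Psme2 in both lines, Psmd10 in 6419c5, and Psma4 and Psmc2 in 6694c2. For a change within a line, leaving out a library of the other line alters only the shared estimate of spread. Those alternatives therefore say little about such a change. The count of members that rose in 6694c2 was 13. It was 4 with median-of-ratios scaling, 8 without the 20 most abundant genes and 20 with the macrophage covariate. It was 10 with the replicate block, 19 with the GC correction and 6 without the 3 libraries. All genes called there in either direction numbered 2744. In the same order of settings they numbered 2732, 2525, 3295, 2158, 3573 and 2205. Genes tested were 13759 without the 20 most abundant and 13422 in the others. Under these settings, in the same order, the difference between lines (2 members) gave 0, 1, 8, 0, 4 and 0; 6694c2 KO1 (9) gave 4, 6, 11, 7, 14 and 4; 6694c2 KO2 (9) gave 3, 6, 14, 6, 15 and 5; WT against WT (19) gave 9, 17, 16, 17, 20 and 12; 6419c5 KO2 (3) gave 3, 4, 5, 3, 5 and 2; and KO2 against KO1 of 6419c5 (3) gave 4, 5, 4, 3, 5 and 2. All genes called, in that order of settings, numbered 1301, 1156, 1480, 828, 1536 and 785 for the difference between lines (1169). For 6694c2 KO1 (2913) they numbered 3033, 3042, 1917, 2382, 3508 and 2440. For 6694c2 KO2 (1949) they were 1722, 1608, 2932, 1454, 2813 and 1615. WT against WT (6213) had 5777, 6084, 6159, 5639, 6884 and 5387. In 6419c5, KO2 (2540) had 2446, 2604, 2165, 2081, 2893 and 1977. KO2 against KO1 (3534) had 3491, 3596, 1327, 3080, 3863 and 3709. Scaling moved the median of all genes in 6694c2 from 0.15 to -0.01.

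Leaving out single libraries gave 3 to 4 members higher in 6419c5, 8 to 15 higher and 0 to 1 lower (Psmb5, without WT replicate 3) in 6694c2, 0 to 4 for the difference between lines, 2 to 4 for 6419c5 KO2, 1 to 5 for KO2 against KO1 of 6419c5, 5 to 14 for 6694c2 KO1, 3 to 13 for 6694c2 KO2, 0 to 1 for KO2 against KO1 of 6694c2, 13 to 20 for WT against WT, and 3 in each case for 6419c5 KO1. The count in 6694c2 was 8 without KO1 replicate 1 and 8 without KO2 replicate 1. The cause of these shifts was not tested. Same-numbered libraries did not deviate together throughout (r from -0.38 to 0.48 over 18 pairs, 5 above 0.1), so the numbers were not taken as pairs. The highest r, 0.48, was that of replicate 1 of 6419c5 WT and KO1, which did deviate together. TPM hold no read numbers, so what depth limits is unknown.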
